A study of Mus musculus with 32 samples.

Results

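The Mgll locus, taken as chromosome 6 from 88640001 to 88820000 on mouse build mm9 (180 kb), was described through the open-chromatin peaks whose centres lie in it: 62 of the 229137 peaks called in liver endothelial cells or Kupffer cells. The locus held 39 endothelial and 23 Kupffer peaks. The locus was chosen by its number of peaks called in endothelial cells alone (21 in a window of 100 kb), so its class counts are a description and no test was made of them. Mgll encodes monoacylglycerol lipase, and the stretch of mm9 was assigned to Mgll by the choice of the locus. No mm9 annotation was used, so no peak is assigned here to an exon, an intron or a promoter. In the RefSeq gene order of the later build GRCm38.p6, Kbtbd12 and the long non-coding RNA gene Gm26588 start before Mgll on chromosome 6, and Abtb1 and Podxl2 follow it.

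The study asked how the clock of hepatocytes acts on other cells of the liver. ATAC-seq, which marks accessible DNA by inserting adapters with a transposase, was run on endothelial cells and on Kupffer cells, the macrophages that live in the liver sinusoids, with 50000 isolated cells per reaction. The labels list 32 libraries from male C57BL/6J mice on normal chow, in 8 groups of 4: each cell type at ZT10 and at ZT22 (hours after lights on), in WT mice and in REV-ERB a/b double knockout mice, which lack both REV-ERB repressors of the clock in the hepatocytes of the adult animal. The labels used here do not say how the deletion was induced, how old the mice were, how the cells were isolated or whether animals were pooled. Both REV-ERB genes are described as deleted in hepatocytes, not in the endothelial or Kupffer cells that were profiled.

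The data at hand are 1 list of nucleosome-free peaks per cell type, with positions and no height, count or library of origin. Genotype and time were therefore not analysed here, no value has a replicate, and the depth is unknown. The identity of the isolated cells could not be checked against marker genes. Where 1 list has no peak, none was called in that cell type, which does not show that the site was closed, and a called peak does not show what part of the cells had it open.

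Monoacylglycerol lipase is a serine hydrolase that splits monoacylglycerols into a fatty acid and glycerol. It takes the last step in the breakdown of stored triglyceride and is the main enzyme that degrades 2-arachidonoylglycerol, an endocannabinoid. In the liver the arachidonic acid it releases feeds prostaglandin synthesis. The ligand 2-arachidonoylglycerol is made by the diacylglycerol lipases Dagla and Daglb and acts on the receptors Cnr1 and Cnr2. Liver sinusoidal endothelial cells and Kupffer cells both face the sinusoid, where such lipid mediators are exchanged with blood and hepatocytes. Open sites away from a gene's start often mark enhancers or other regulatory elements, but a peak position does not show which gene a site serves.

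The sequence before the annotated start of Mgll is shown for the gene's identity and for a match to the letters of a clock element. No binding to these letters was measured. RefSeq lists 2 start windows for Mgll, both on the plus strand of chromosome 6 in GRCm38.p6. The 250 bases before the first of the starts read as follows, with the E-box, the element bound by CLOCK and BMAL1, in capitals:
Mgll, 250 bases upstream: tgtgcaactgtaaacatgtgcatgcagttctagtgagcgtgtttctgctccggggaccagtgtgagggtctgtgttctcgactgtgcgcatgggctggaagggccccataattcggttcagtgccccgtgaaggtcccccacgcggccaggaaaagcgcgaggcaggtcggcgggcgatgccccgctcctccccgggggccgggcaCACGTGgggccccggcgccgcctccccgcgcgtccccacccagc

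The stretch held 1 E-box (CACGTG, its own reverse complement), whose first base lies 44 bases before the start, and the window of the other start held none. The same 6 letters occurred in 6.02% of the 32851 upstream windows of the RefSeq table. G and C made up 68.0% of the 250 bases, against a median of 52.4% over all windows. Searched on both strands, neither Mgll window held the half-site of REV-ERB and ROR (AGGTCA, in 14.0% of all windows), an ETS site (CCGGAAGT, in 2.88%), a PU.1 site (GAGGAAGT, in 2.44%), a GATA site (AGATAA, in 9.99%) or an AP-1 site (TGACTCA, in 4.46%). The PU.1 and ETS motifs share the letters GGAAGT. These matches are descriptions of letters on GRCm38.p6, and the start could not be laid onto the mm9 peaks.

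Endothelial-only peaks, defined as endothelial peaks with no Kupffer peak overlapping by 1 bp or more, made up 26 of the 39 endothelial peaks in the locus. That is 66.7% (95% exact binomial interval 49.8% to 80.9%, which covers counting error only). Over the whole endothelial list 41.7% of peaks were endothelial-only. The locus was chosen for such peaks, and neighbouring peaks are not replicates. The intervals given here are therefore no test against the whole lists. Kupffer-only peaks were 10 of the 23 Kupffer peaks, or 43.5% (23.2% to 65.5%), where 60.9% of the whole Kupffer list was Kupffer-only. The remaining 13 endothelial and 13 Kupffer peaks overlapped each other and formed 12 shared sites. The locus had more endothelial-only than Kupffer-only peaks, while the Kupffer-only class is the larger of the pair over the genome, with 83884 peaks against 38129.

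Along the locus the classes were not mixed evenly. A first part with both cell types was followed by a stretch with endothelial peaks alone and then by a second mixed part, which ended in Kupffer-only peaks and a shared site. Before the stretch, from 88640001 to 88695319, there were 5 endothelial-only peaks, 3 Kupffer-only peaks and 6 shared sites. The stretch itself, from 88695320 to 88754165, lay between consecutive Kupffer peaks 58.8 kb apart, and the peaks wholly inside it were 14 endothelial-only peaks. The endothelial partners of the Kupffer peaks that bound it, at 88695269-88695419 and 88754138-88754296, reach into the stretch and were counted with the sites before and after it. After it, up to 88820000, there were 7 endothelial-only peaks, 7 Kupffer-only peaks and 6 shared sites. Of the endothelial-only peaks in the locus, 53.8% thus lay in the stretch without a Kupffer peak.

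**Figure D1:**
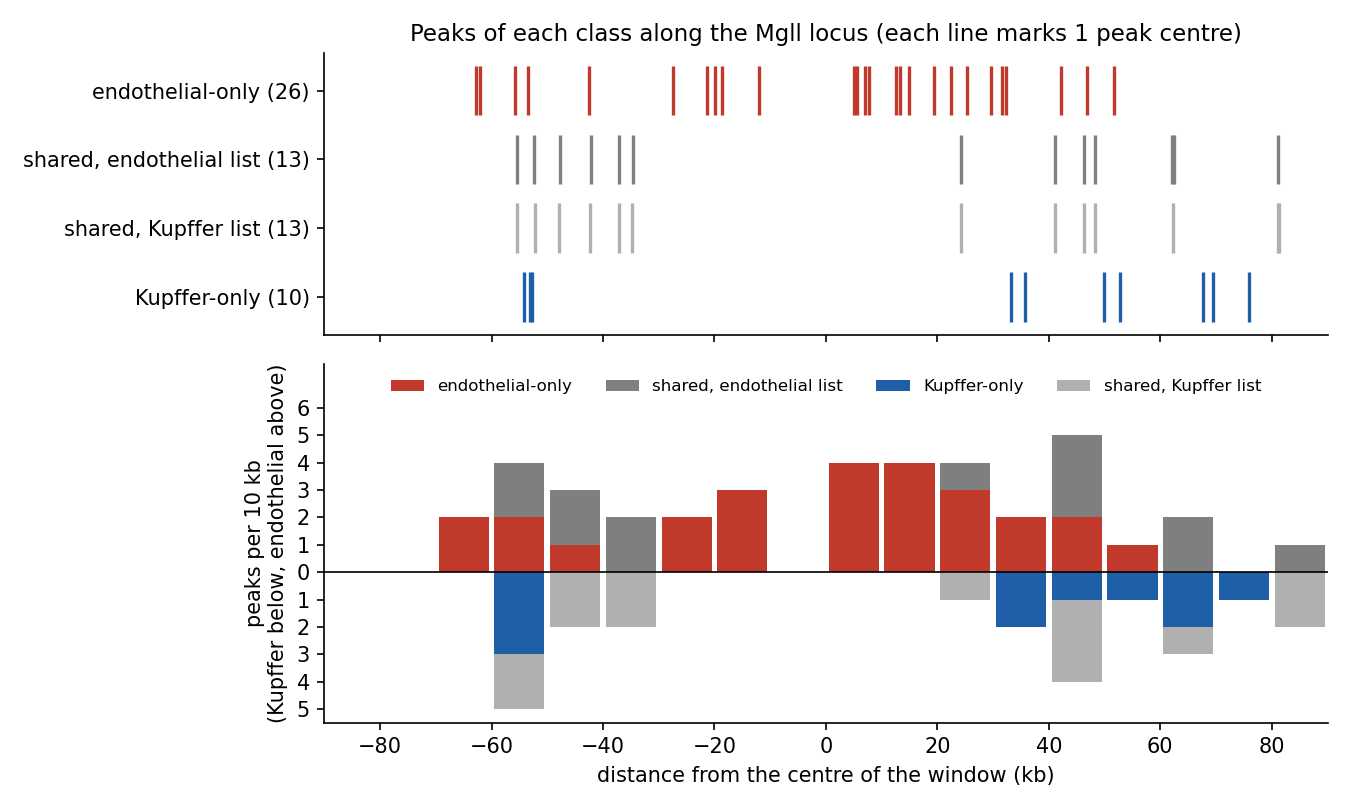
Upper panel: each vertical line marks the centre of 1 peak, by class, against distance from the centre of the 180 kb window in kb. Lower panel: peaks per 10 kb, endothelial above and Kupffer below the zero line. The 14 endothelial-only peaks in the middle have no Kupffer peak among them, and 6 shared sites lie on each side of them.

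The 14 peaks of the endothelial stretch fell into a group of 5 and a group of 9. The first 5 spanned 15.6 kb. The run opened at 88702431-88702634 with a peak 204 bp wide, 7111 bp from the Kupffer peak before it. The widest endothelial-only peak of the locus followed at 88709881-88710261, with 381 bp, and peaks at 88708608-88708842 (235 bp) and 88711321-88711529 (209 bp) lay 1038 and 1059 bp from it. The last of the 5 was at 88717875-88718067 (193 bp), and at 22555 bp it was the endothelial peak farthest from any Kupffer peak in the locus.

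No peak of either list was called over the next 16824 bp, from 88718068 to 88734891, the widest gap between peaks inside the locus. The other 9 peaks of the run then spanned 17.6 kb. The first of these were a close pair at 88734892-88735188 and 88735391-88735683, 297 and 293 bp wide with 202 bp between them, the smallest gap between any endothelial-only peaks of the locus. A second pair, at 88736868-88737018 (151 bp) and 88737568-88737800 (233 bp), was 549 bp apart. Another pair, at 88742509-88742800 (292 bp) and 88743129-88743356 (228 bp), was 328 bp apart. Single peaks at 88744728-88745000 (273 bp), 88749363-88749538 (176 bp) and 88752310-88752460 (151 bp) closed the run. The last one lay 1705 bp from the Kupffer peak that ends the stretch, the shortest such distance among the 14.

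The stretch was defined by the absence of Kupffer peaks, so the distances of its peaks from Kupffer peaks follow in part from that choice and are given as a description. For the other 12 endothelial-only peaks the median gap to the nearest Kupffer peak was 794 bp (range 102 to 6996 bp), against 13924.5 bp (1705 to 22555 bp) for the 14 in the stretch. In the locus 10 of the 26 endothelial-only peaks lay more than 10 kb from a Kupffer peak, all of them in the stretch. Over the genome 29.4% of endothelial-only peaks had no Kupffer peak within 10 kb. Close to the limit of the definition, 4 endothelial-only peaks had a Kupffer peak within 500 bp. The smallest of those gaps was 102 bp, at 88687373-88687523, and the other 3 were 191, 207 and 274 bp.

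**Figure D2:**
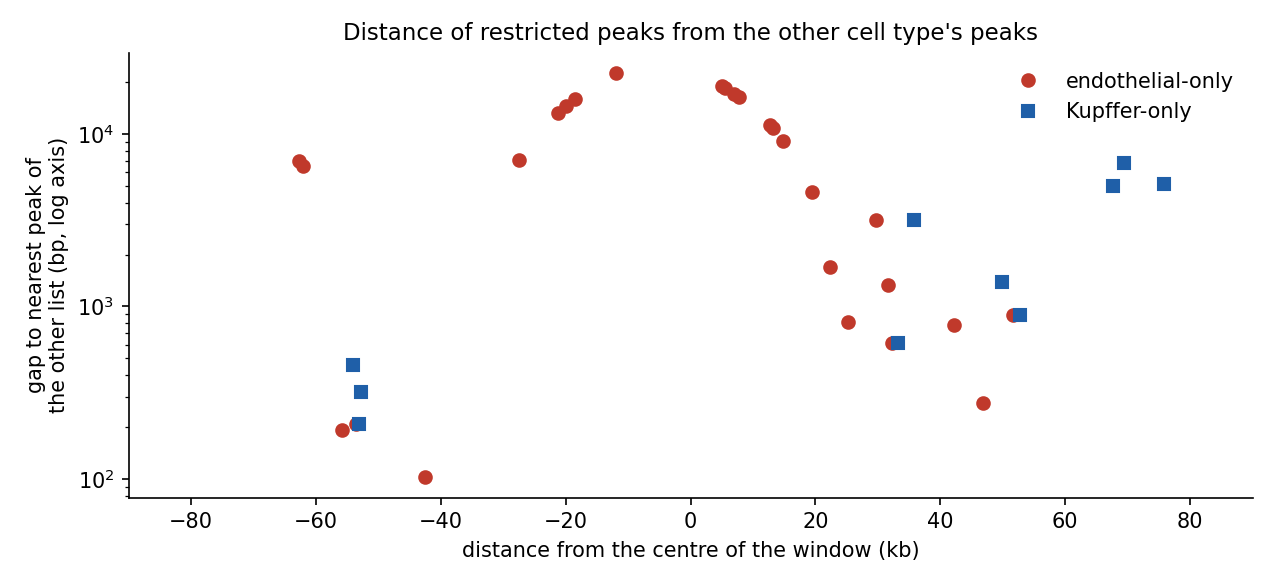
Gap in bp (log axis) from each of the 26 endothelial-only and 10 Kupffer-only peaks to the nearest peak of the other list, against distance from the centre of the window in kb. Endothelial-only peaks near the middle reach 22555 bp, whereas no Kupffer-only peak is farther than 6819 bp from an endothelial peak. Over the genome 31.8% of Kupffer-only peaks lay more than 10 kb from an endothelial peak. The locus was chosen for its endothelial-only peaks, so this contrast follows in part from the choice.

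Outside the stretch, the locus opened on its left with 27.1 kb without a peak. The first endothelial-only peaks were a pair at 88667134-88667449 (316 bp) and 88667767-88667917 (151 bp). Those at 88674104-88674254 (151 bp), 88676394-88676553 (160 bp) and 88687373-88687523 (151 bp) were interleaved with shared and Kupffer-only peaks. On the right, the 7 endothelial-only peaks ran from 88755138-88755338 (201 bp) to 88781579-88781824 (246 bp). They included the second widest of the locus, at 88759510-88759886 with 377 bp. No endothelial-only peak was called in the last 38.2 kb of the locus.

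Endothelial-only peaks followed each other at a median gap of 2771 bp (quartiles 1059 and 5973 bp, 25 gaps), against a median of 16815 bp between consecutive endothelial-only peaks over chromosomes 1 to 19 and X. Short gaps follow in part from the choice of the locus by its number of such peaks, so this contrast is a description. Gaps of up to 1 kb joined 10 of the 26 peaks into 5 pairs, 3 of them inside the stretch without a Kupffer peak, and left 16 single peaks. With all peaks of a list within 1 kb of each other joined before the overlap, 15 endothelial-only peaks were left, at a median gap of 4535 bp, and without peaks of 151 bp the median gap was 4434 bp. The 26 peaks covered 5897 bp, so most of the locus lay outside any of them.

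Most endothelial-only peaks of the locus were wider than the median of their class. Their median width was 218.5 bp (quartiles 164 and 266 bp, range 151 to 381 bp), and that of all 38129 endothelial-only peaks was 171 bp. Of the 26 peaks, 19 were wider than that genome median. A width of 151 bp, the commonest value in both lists, was found for 6 of them, or 23.1%, and for 44.6% of the whole class. Inside the stretch without a Kupffer peak the median was 230.5 bp, with 2 of 14 peaks at 151 bp and 5 over 250 bp. The 5 peaks before the stretch had a median of 151 bp and the 7 after it one of 235 bp. Width was not used to choose the locus, but neighbouring peaks are not replicates, so the difference was not tested. Width also depends on how the libraries were merged into a list, which is not given.

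**Figure D3:**
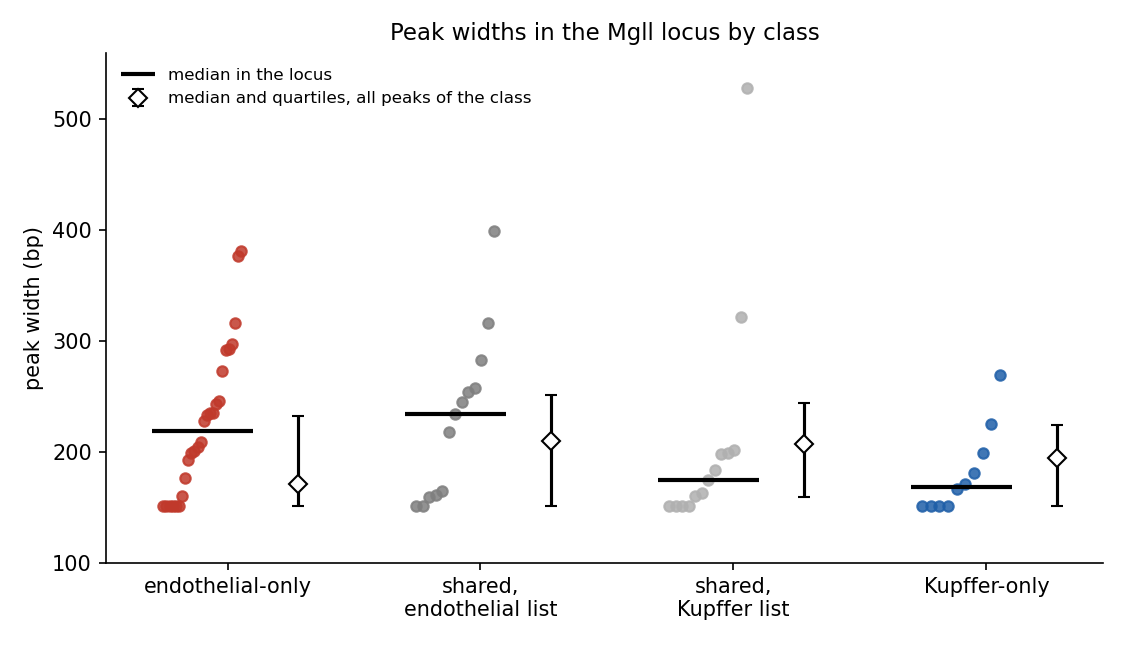
Width in bp of each peak in the locus by class (points), with the median in the locus (black bar) and the median and quartiles of all peaks of the class in the genome (open diamonds with whiskers). Endothelial-only peaks have a median of 218.5 bp in the locus and 171 bp in the genome, whereas Kupffer-only peaks have 168.5 and 194 bp.

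Kupffer-only peaks lay on both sides of the stretch and were mostly narrow. The 3 on the left, at 88675787-88675937 (151 bp), 88676761-88676941 (181 bp) and 88677126-88677276 (151 bp), fell within 1490 bp of each other, and each had an endothelial peak within 500 bp. The 7 on the right were spread over 42.9 kb. Among these, 88763060-88763258 (199 bp) and 88782718-88782942 (225 bp) lay 611 and 893 bp from an endothelial-only peak. Peaks at 88765642-88765792 (151 bp) and 88779733-88779903 (171 bp) were 3193 and 1379 bp from the nearest endothelial peak.

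The last 3 Kupffer-only peaks, at 88797581-88797849 (269 bp), 88799371-88799521 (151 bp) and 88805779-88805944 (166 bp), were the peaks wholly inside the 18.5 kb between consecutive endothelial peaks, from 88792552 to 88811051. Such stretches were common: 26.0% of those between consecutive endothelial peaks were at least as long, and 1430 of the 7444 of similar length held at least 3 Kupffer peaks. Over the 10 Kupffer-only peaks the median width was 168.5 bp, against 194 bp for all Kupffer-only peaks. A width of 151 bp was found in 4 of the 10, or 40.0%, and in 27.4% of the whole class. The median width was thus larger for endothelial-only peaks of the locus, and smaller for its Kupffer-only peaks, than for their whole class. With 10 peaks this is a description of these sites.

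The 12 shared sites were split evenly, with 6 before and 6 after the stretch. On the left, the widest shared endothelial peak, at 88674385-88674783 with 399 bp, enclosed a Kupffer peak of 151 bp at 88674446-88674596. At 88682080 both lists began at the same base, with the endothelial peak ending at 88682337 (258 bp) and the Kupffer peak at 88682281 (202 bp). The endothelial peak at 88692792-88693009 (218 bp) enclosed the Kupffer peak at 88692808-88692982 (175 bp), with centres 5.5 bp apart. The other 3 left sites were offset. The endothelial peak at 88677594-88677744 (151 bp) overlapped that of the Kupffer list at 88677658-88677808 (151 bp) by 87 bp. At 88687690-88687934 (245 bp) and 88687626-88687776 (151 bp) the overlap was also 87 bp. The last left site, with peaks of 151 bp at 88695269-88695419 in endothelial and 88695169-88695319 in Kupffer cells, shared only 51 bp and had centres 100 bp apart.

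On the right, single partners matched more closely. The peaks at 88754138-88754296 (159 bp) in endothelial and 88754166-88754325 (160 bp) in Kupffer cells shared 131 bp. At 88770918 both lists again began at the same base, and here the Kupffer peak, ending at 88771239 (322 bp), was wider than the endothelial peak, ending at 88771200 (283 bp). The pair at 88776213-88776377 (165 bp) and 88776177-88776374 (198 bp) shared 162 bp. The endothelial peak at 88778038-88778353 (316 bp) enclosed a Kupffer peak of 199 bp at 88778105-88778303. These 4 pairs had centres 8.5 to 28.5 bp apart, against 5.5 to 111 bp for the 6 pairs on the left. At the remaining right sites, where a single peak met a pair of partners, the centres were 65 to 232 bp apart.

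At the last 2 shared sites the lists divided the same DNA differently. The widest peak of the locus was a Kupffer peak of 528 bp at 88791929-88792456, and it met a pair of endothelial peaks, at 88792017-88792177 (161 bp) and 88792298-88792551 (254 bp). Only 0.281% of shared Kupffer peaks in the genome were as wide or wider, and 1.35% of shared Kupffer peaks overlapped more than 1 endothelial peak. The reverse was seen at the last site. There 1 endothelial peak at 88811052-88811285 (234 bp) met Kupffer peaks at 88811012-88811195 (184 bp) and 88811245-88811407 (163 bp). Its overlap with the second of these, 41 bp, was the smallest in the locus. Over the genome 2.23% of shared endothelial peaks overlapped more than 1 Kupffer peak.

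Over the 14 overlapping pairs at these sites the median distance between centres was 63.5 bp, against 25 bp over the 54534 pairs of the genome. In 10 of the 14 pairs the centres were farther apart than the genome median. Where a single peak met a pair of partners, the distances were 65, 95.5, 157.5 and 232 bp, all above the median of 63.5 bp. Between single partners they were 5.5, 8.5, 19.5, 19.5, 28, 28.5, 63, 64, 100 and 111 bp. The larger median in the locus thus came in part from peaks counted in 2 pairs. The endothelial partner was the wider in 7 pairs and the Kupffer partner in 5, and widths were equal in 2. In these counts the Kupffer peak of 528 bp and the endothelial peak of 234 bp at the split sites each entered 2 pairs as the wider partner. Shared endothelial peaks had a median width of 234 bp in the locus and 210 bp in the genome, and shared Kupffer peaks 175 and 207 bp. The median width was thus larger for endothelial peaks of both classes, and smaller for Kupffer peaks of both classes, than for the same class in the genome. These differences were not tested.

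Stretches of this kind were set beside those between all consecutive Kupffer peaks on chromosomes 1 to 19 and X. Of 137522 such stretches, 6265 or 4.56% were at least as long as the one in the Mgll locus, and 49 held at least 14 endothelial peaks. Of those 49, only 1 was shorter. Among the 2898 stretches of similar length, from 47.1 to 70.6 kb, the median number of endothelial peaks was 0, and no other than that of the Mgll locus held 14 or more. The highest number in any stretch, of any length, was 31. These ranks describe a locus that was chosen for its endothelial-only peaks.

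**Figure D4:**
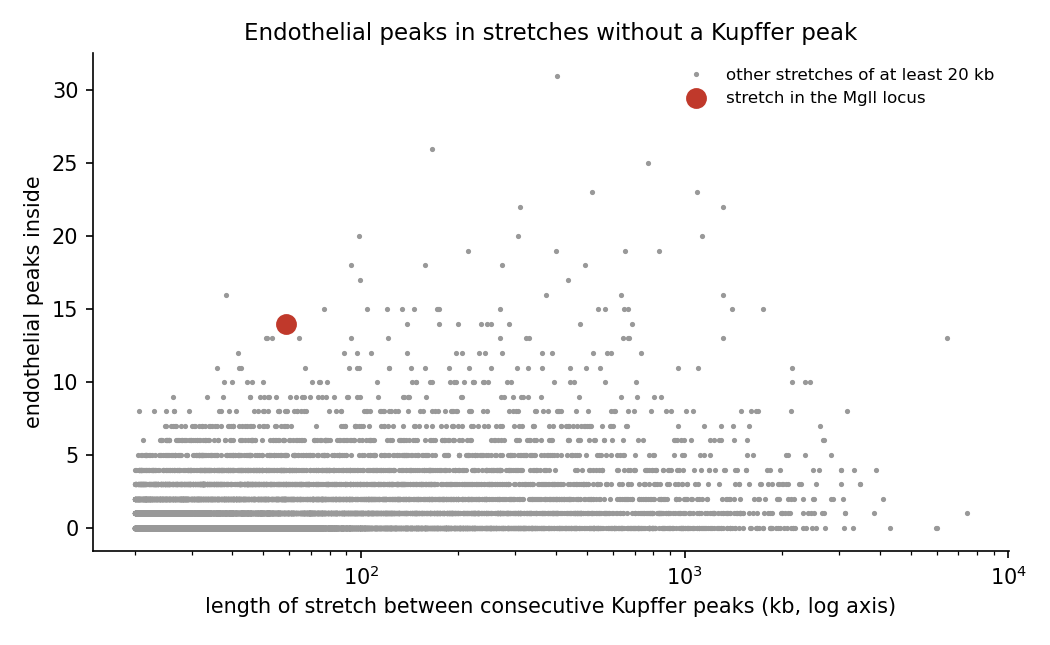
Number of endothelial peaks inside each stretch between consecutive Kupffer peaks, against the length of the stretch (kb, log axis), for stretches of at least 20 kb. The stretch of the Mgll locus (red), 58.8 kb with 14 endothelial peaks, lies above the other stretches of similar length.

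In windows of the same length, 180 kb, tiled along the chromosomes, the median was 2 endothelial-only and 5 Kupffer-only peaks over 10963 windows with any peak. The locus had 26 and 10. Of the tiled windows, 5 held at least 26 endothelial-only peaks, with a maximum of 34, whereas 33.4% held at least 10 Kupffer-only peaks. Its 13 shared endothelial peaks were matched or exceeded in 10.2% of windows, against a median of 3. The borders of the locus were fitted to it and those of the tiled windows were not, so these counts are not fully alike.

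**Figure D5:**
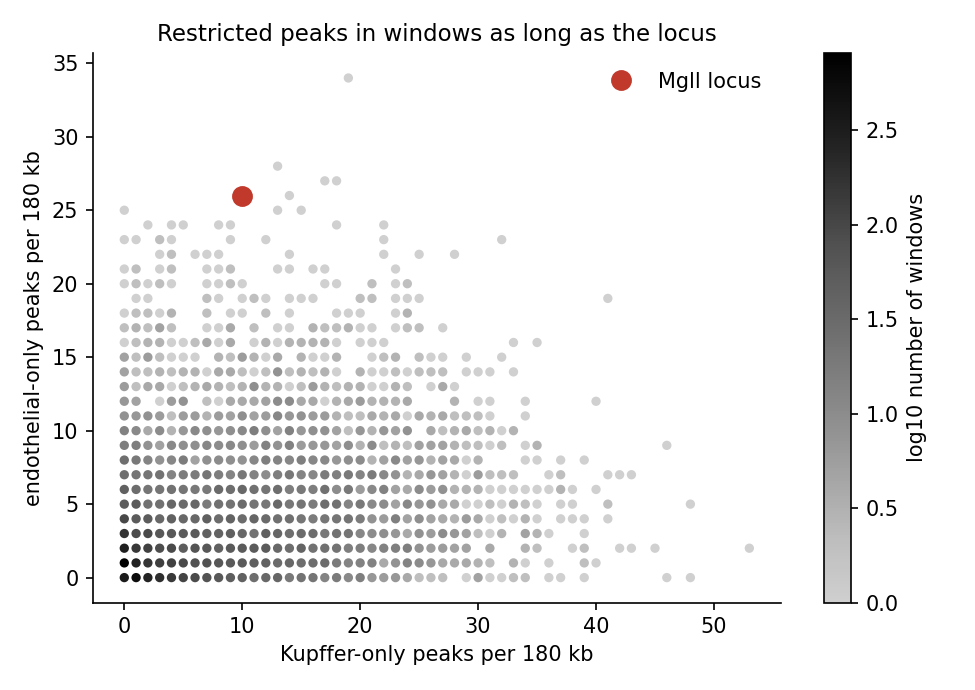
Endothelial-only against Kupffer-only peaks in 180 kb windows tiled along the genome. Each grey point is a combination of counts, shaded by the log10 number of windows that have it, and the red point is the Mgll locus with 26 endothelial-only and 10 Kupffer-only peaks.

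On a fixed grid of 100 kb windows, the one from 88700001 to 88800000 inside the locus held 21 endothelial-only, 6 Kupffer-only and 6 shared endothelial peaks. The other 4 of the 5 windows of that size with the most endothelial-only peaks held 21 to 23 endothelial-only peaks and 0 to 5 Kupffer-only peaks. The median width of endothelial-only peaks was 233 bp in the Mgll window, against 192, 189, 209 and 193 bp in the windows on chromosomes 17, 4, 15 and 8. All 5 medians lay above the 171 bp of the whole endothelial-only class. Peaks of 151 bp were 3 of 21 in the Mgll window and 4 to 9 in each of the others. Their share was 14.3% in the Mgll window and 19.0% to 40.9% in the others, against 44.6% of the whole class. The longest run of endothelial-only peaks without a Kupffer peak was 14 in the Mgll window, 16 on chromosome 17, 9 on chromosome 4, 11 on chromosome 15 and 10 on chromosome 8. Median gaps between endothelial-only peaks were 2724 bp in the Mgll window and 2531 to 3840 bp in the others. By contrast, the window with the most Kupffer-only peaks, on chromosome 19 from 55800001 to 55900000, held 37 of these and 2 endothelial-only peaks. Each window is a single region in 2 lists, and none of these differences was tested.

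Beyond the borders, the nearest peak of either list on the left was an endothelial-only peak of 151 bp at 88627929-88628079. On the right it was a Kupffer-only peak of 151 bp at 88824788-88824938, 4.86 kb outside.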

How the data were processed

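Bowtie, HOMER and the build mm9 are named, without versions, in the submitters' processing notes. The deposited files are 2 peak lists, 1 per cell type, and their values are chromosome, start and end positions, with no score. The peak threshold, the selection of nucleosome-free fragments, transposase offsets and the merging of the libraries are not stated in these sources. Positions are printed counted from 1.

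A peak was assigned to the locus by its centre and counted as shared if any peak of the other cell type overlapped it, with 1 bp as the minimum. Overlaps were computed with NumPy 2.4.6 and pandas 2.3.3 in Python 3.11.15, tested on simulated data against a direct search, and checked with bedtools 2.31.1, which gave the same 53324 shared endothelial and 53800 shared Kupffer peaks. Exact binomial intervals came from SciPy 1.17.1, and figures from matplotlib 3.10.9. No p-value was computed, since the lists hold no replicates. Named peaks are the 3 widest, the first and the last of each class, the ends of runs and gaps, and all shared and Kupffer-only peaks. The further peaks of the run, the paired peaks and the comparison of stretches were added after their values were seen. The locus, the classes and the comparison windows were chosen with earlier results of these data known. The genes listed for the endocannabinoid pathway were not counted, since no mm9 annotation was used. Motifs were searched on both strands of the RefSeq windows (GRCm38.p6).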

Additional observations from a re-analysis of the deposited data

How the results depend on the processing

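Counts were held against a factor of 1.5, shares against the exact binomial interval and medians against their 95% order-statistic interval. Of 34 alternative values, 31 stayed within these bounds and 3 did not. Joining peaks of a list within 1 kb left 15 endothelial-only peaks against 26. Joined among themselves the 26 peaks make 21 intervals. Others, such as 88674104-88674254, lay within 1 kb of a shared endothelial peak and were joined to it, so they counted as shared. The peak at 88676394-88676553 lay between Kupffer peaks, at 88675787-88675937 and 88676761-88676941, that were joined across it. Kupffer-only peaks fell from 10 to 6 without peaks of 151 bp and to 6 in the 100 kb window, both of which remove peaks by construction. The share of endothelial-only peaks ran from 53.6% (peaks joined) to 79.5% (50% of each partner covered). The median width ran from 218.5 to 239 bp. The median gap ran from 2677 to 4535 bp, and it was 4434 bp without peaks of 151 bp and 4535 bp with peaks joined. Both are over 1.5 times the 2771 bp reported, although within its wide interval of 1184 to 4708 bp. The longest run without a Kupffer peak held 12 endothelial peaks without peaks of 151 bp and 11 with peaks joined, 2 settings chosen after the data were seen. Endothelial-only peaks outnumbered Kupffer-only peaks in each of the 7 settings. The locus was chosen for its endothelial-only peaks and each setting reuses the same lists, so this excess is no independent support. No paired analysis was possible because each list merges its libraries. No replicate could be left out either, and no stricter peak threshold was run because no score is given. Depth, which is unknown, limits every statement about a missing peak.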
